A study of Rattus norvegicus with 36 samples.

Results

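Genes of milk secretion were examined in rat mammary cancers and in normal mammary tissue. The 9 genes named were the caseins Csn1s1, Csn2 and Csn3, the whey proteins Lalba and Wap, the secreted proteins Glycam1 and Lpo, and the milk fat globule genes Xdh and Btn1a1. Each was looked up by its symbol among the 20832 probe sets whose platform annotation gave a single gene symbol, out of 31099 on the array. A single probe set was found for each of 8 genes, and Btn1a1 was not analysed here. Those 8 were among 14218 gene symbols.

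RNA from 33 mammary cancers and 3 normal mammary tissues was hybridised to 36 single-colour arrays, 1 sample to an array. All samples came from female Sprague-Dawley rats. A fat-rich diet with 23.5% corn oil was given to all rats after 9 weeks of age. The study compared causes of mammary cancer, with and without a mutation of the oncogene H-ras. Spontaneous cancers (n = 3) and the normal tissues (n = 3) came from untreated rats. Treatment began at 7 weeks of age in every treated group. Radiation cancers (n = 4) followed 1 Gy of whole-body gamma rays. MNU, an alkylating carcinogen, was injected into the peritoneum at 40 mg/kg and gave 5 cancers with mutated H-ras and 4 with nonmutated H-ras. PhIP, a carcinogen formed in cooked meat, was given by gavage at 40 mg/kg per day on 5 days a week for 2 weeks and gave 1 mutated and 3 nonmutated cancers. Radiation plus MNU gave 5 mutated and 4 nonmutated cancers, and radiation plus PhIP gave 4 nonmutated cancers, the chemical following the 1 Gy by 3 days. Spontaneous and radiation cancers were nonmutated. The labels leave it unstated whether any 2 cancers shared a rat, so p-values measure the spread between these samples. They also give no reproductive state for the rats that gave normal tissue.

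Milk proteins are made by luminal alveolar cells of the mammary gland. Prolactin binds its receptor, the kinase JAK2 is activated, and the transcription factor STAT5 moves to the nucleus and raises casein genes and other milk genes, with glucocorticoid receptor and ELF5 as partners. Caseins form the micelles of milk, alpha-lactalbumin (Lalba) modifies galactosyltransferase so that lactose is made, and xanthine oxidoreductase (Xdh) with butyrophilin (Btn1a1) wraps lipid droplets in membrane as they leave the cell.

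STAT5 binds DNA of the form TTCNNNGAA, in which N is any base, and the sequence is its own reverse complement. The 250 bases before the gene start were read from RefSeq for assembly GRCr8, in which all 9 genes had an entry. TTCNNNGAA was present in 3 of the 9, against 7.67% of 33469 promoters of that length. Counted from the gene start, the match began at base -97 in Csn2, -100 in Csn1s1 and -175 in Glycam1. TATAAA, the core of a TATA box, was searched on both strands and was present in 1 of the 9, Lpo, at base -31, against 12.9% of all promoters. The 3 promoters with a match are shown, with the match in capitals, because these genes include the most variable one of the cancers and the casein pair that lies side by side in the genome. They lie at chr14:20601574-20601823 on the plus strand (Csn2), chr14:20638850-20639099 on the minus strand (Csn1s1) and chr7:136561300-136561549 on the minus strand (Glycam1). A match is a description of these letters and was not tested for binding.
Csn2: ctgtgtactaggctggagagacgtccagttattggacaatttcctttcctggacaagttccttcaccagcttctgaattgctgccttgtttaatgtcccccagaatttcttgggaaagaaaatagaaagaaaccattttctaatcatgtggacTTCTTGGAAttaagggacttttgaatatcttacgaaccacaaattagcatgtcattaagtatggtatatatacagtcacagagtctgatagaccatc
Csn1s1: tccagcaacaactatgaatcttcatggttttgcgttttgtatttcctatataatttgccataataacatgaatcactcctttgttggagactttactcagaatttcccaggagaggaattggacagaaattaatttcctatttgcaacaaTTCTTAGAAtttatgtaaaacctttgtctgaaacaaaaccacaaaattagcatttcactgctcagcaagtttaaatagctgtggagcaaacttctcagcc
Glycam1: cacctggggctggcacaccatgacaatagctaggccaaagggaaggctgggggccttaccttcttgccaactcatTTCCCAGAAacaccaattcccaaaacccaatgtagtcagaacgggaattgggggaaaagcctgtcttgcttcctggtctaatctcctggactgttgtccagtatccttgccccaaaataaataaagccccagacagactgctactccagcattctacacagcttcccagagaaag

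Values are array intensities on a linear scale, from 0.0151 to 32544, with array medians of 161.4 to 222.7. Levels and differences in log2 are log2(intensity + 42.8), which understates the change of dim genes. Samples correlated over all probe sets at up to 0.984, and no pair held identical values. The MNU H-ras nonmutated cancer 4 stood apart: its hexokinase 3'/5' probe ratio, a sign of RNA integrity, was 12.2, against 1.66 to 4.66 on the other arrays, and its median intensity was the lowest. Several results that rest on it are also given without it. Luminal markers were present throughout. The mean of 11 luminal epithelial genes was 11.17 to 11.97 (log2 level) in the cancers and 11.03 to 11.54 in normal tissue. Adipocyte genes were far lower in the cancers: the mean of 11 was 7.20 to 8.28, against 10.94 to 11.63 in normal tissue. In these bulk samples fewer cells of a type and less RNA per cell cannot be told apart.

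Csn2 encodes beta-casein. In normal tissue its intensity was 13178, 12765 and 23728. The spontaneous cancers read 11014, 11526 and 10276, and the radiation cancers 16392, 11891, 4013 and 12707. One radiation cancer therefore lay well below the rest of its group. With MNU and mutated H-ras the values were 9701, 11399, 462, 12331 and 10326, and with nonmutated H-ras they were 13257, 12012, 13467 and 4206. PhIP gave 12749 in the mutated cancer and 12780, 13524 and 15247 in the nonmutated ones. Most of these cancers were near the level of the dimmer pair of normal tissues, and the lowest was the MNU H-ras mutated cancer 3. After radiation plus MNU the mutated cancers read 3684, 7785, 9483, 12520 and 12183 and the nonmutated cancers 11839, 9435, 15320 and 13609. Radiation plus PhIP gave 13814, 795, 13194 and 4857. Among the cancers, 23 of 33 lay below all 3 normal tissues, among them all spontaneous and all MNU H-ras mutated cancers. In the radiation plus PhIP group 2 of 4 cancers were dim.

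Csn1s1, which encodes alpha-S1-casein, ranged from 2016 to 17181 in the cancers with a median of 13094, and read 13203, 14430 and 24878 in normal tissue. Csn3, which encodes kappa-casein, the protein that stabilises the micelle, ranged from 1437 to 19229 with a median of 15397, and read 15505, 15777 and 27351 in normal tissue. Lalba ranged from 644 to 14975 with a median of 10049, and read 12772, 13140 and 23273 in normal tissue. For all 3 genes the ranges of cancers and normal tissues overlapped. The lowest cancer for Csn3 and for Lalba was the MNU H-ras nonmutated cancer 4. The lowest for Csn1s1 was the radiation plus PhIP cancer 2, in which Csn3 read 15995.

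The caseins and Lalba were close to the top of the array's scale. Csn3 was the brightest probe set of the whole array on 11 of 36 arrays and passed 70% of the array's highest value on 35. Csn1s1 did so on 33, Csn2 on 26 and Lalba on 14. The median share of the highest value was 95.6% in the cancers and 84.0% in normal tissue for Csn3, and 77.7% and 70.8% for Csn2. For Wap it was 16.4% and 59.3%, for Glycam1 21.4% and 100%, and for Xdh 35.7% and 60.8%. Whether signals near the top were saturated was not tested, since the values used here carry no such mark.

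Wap, the whey acidic protein, is a late gene of the rodent lactation programme. In normal tissue it read 11031, 10888 and 20988. The spontaneous cancers read 2821, 5890 and 2002, and the radiation cancers 12954, 3948, 308 and 1839. MNU cancers read 2502, 3040, 208, 2463 and 1606 with mutated H-ras and 2808, 1100, 5586 and 453 with nonmutated H-ras. Wap was therefore lower than normal tissue in nearly all of these cancers, with radiation cancer 1 inside the normal range. PhIP cancers read 11234 (mutated) and 2779, 2652 and 7432 (nonmutated). Radiation plus MNU gave 350, 2297, 1439, 4588 and 2168 in mutated cancers and 3874, 2014, 8588 and 11029 in nonmutated ones. Radiation plus PhIP gave 6558, 17.5, 3551 and 873. Of 33 cancers, 30 lay below all 3 normal tissues, and the radiation plus PhIP cancer 2 was at the bottom of the scale.

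Glycam1, a mucin-like glycoprotein of the milk fat globule membrane that is also made by lymph node vessels, read 18611, 18771 and 32544 in normal tissue, where it was the brightest probe set on each array. The spontaneous cancers read 4737, 12267 and 2881, and the radiation cancers 10651, 8095, 256 and 4368. In MNU cancers it was 979, 5198, 107, 8910 and 492 with mutated H-ras and 8795, 15064, 3768 and 545 with nonmutated H-ras. Bright and dim cancers stood in the same group. PhIP gave 16677 in the mutated cancer and 221, 8800 and 11909 in the others. Radiation plus MNU gave 93.0, 152, 1123, 7319 and 1376 in mutated cancers and 262, 786, 127 and 13171 in nonmutated ones, and radiation plus PhIP gave 2844, 162, 3595 and 604. All 33 cancers lay below all 3 normal tissues, and 2 of them were under 125.8, the intensity used as a floor.

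Lpo encodes lactoperoxidase, an antibacterial enzyme of milk. It read 1141, 2350 and 1028 in normal tissue and up to 2774 in the cancers, with a median of 154, and 16 cancers were under the floor. Of the cancers, 31 lay below all normal tissues and 1, radiation cancer 1, above them all. Xdh read 11318, 12885 and 17687 in normal tissue and 924 to 10004 in the cancers, with a median of 5217. All 33 cancers lay below all normal tissues for Xdh. Its group ranges ran from 924 to 8682 in nonmutated MNU cancers and from 3586 to 10004 in nonmutated cancers after radiation plus MNU.

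**Figure D1:**
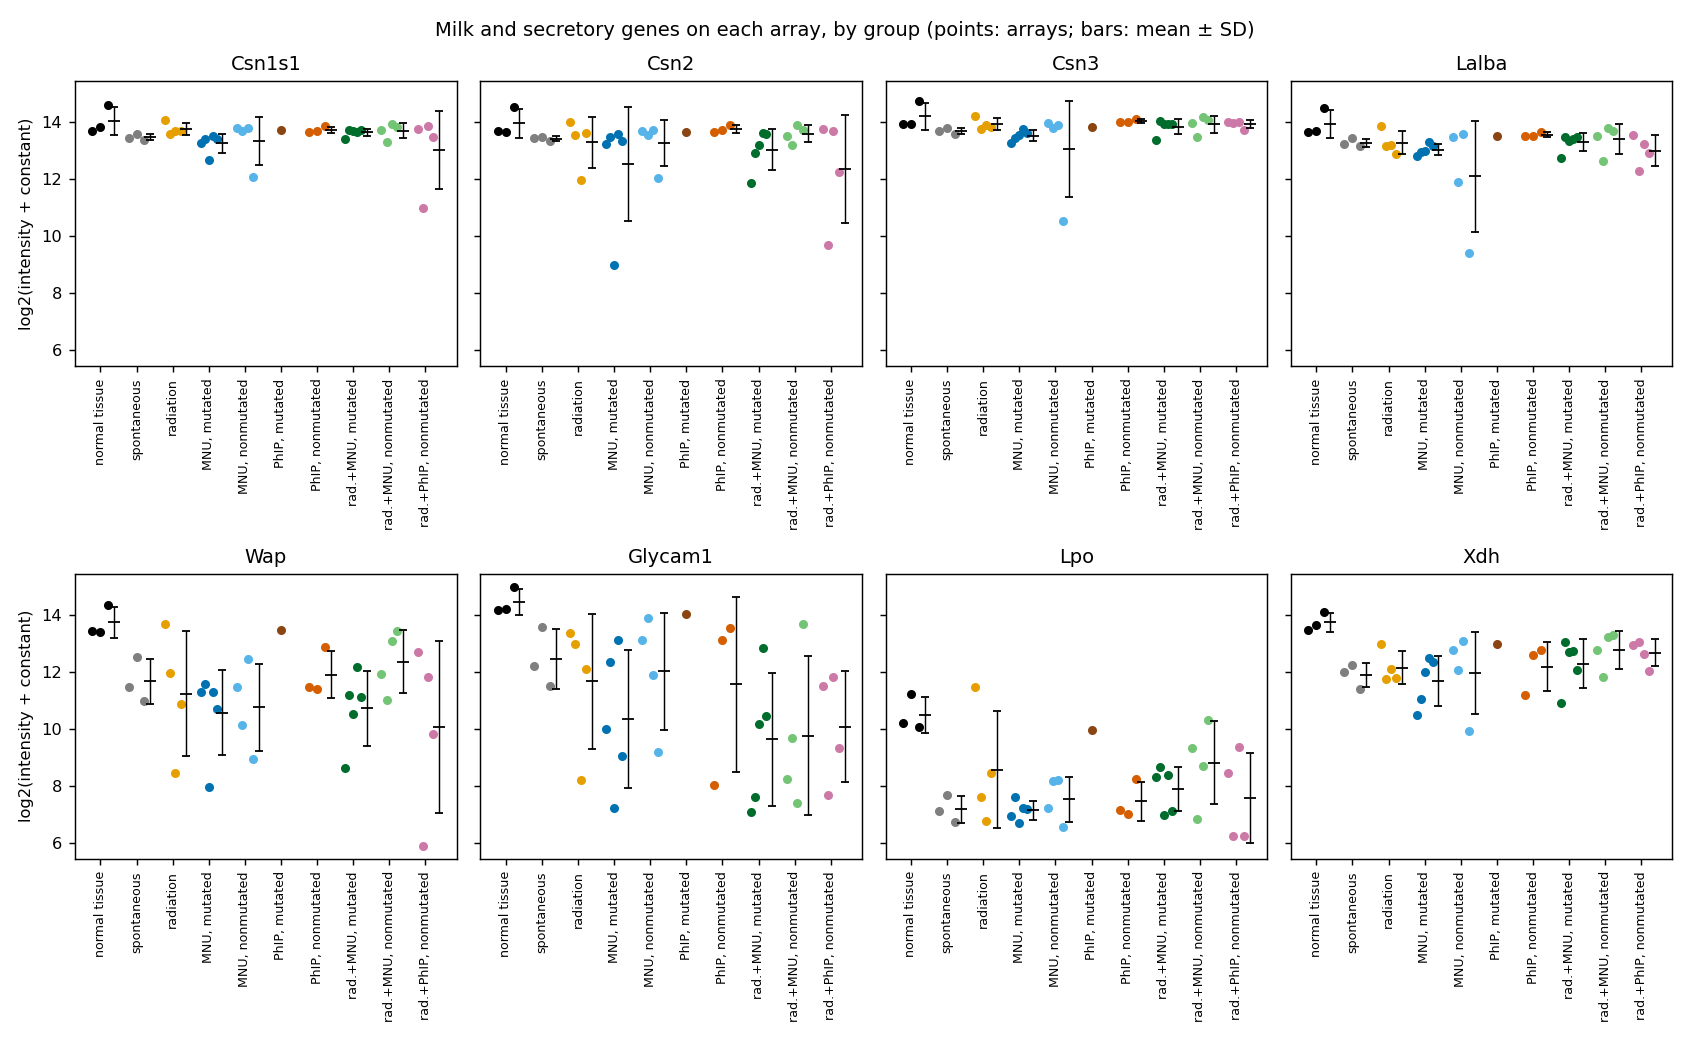
Each panel plots 1 gene, with log2(intensity + 42.8) on the vertical axis and the 10 label groups on the horizontal axis; points are single arrays and bars give mean ± SD of groups with more than 1 array. Csn1s1, Csn2, Csn3 and Lalba stay near the top with single low cancers, while Glycam1 spreads from 7.08 to 14.03 among the cancers and lies below all 3 normal tissues in each of them.

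Compared with normal tissue, the cancers had less RNA of Glycam1, Lpo, Wap and Xdh. Glycam1 was lower by 11.7-fold (log2 difference -3.55 ± 1.28 SE, adjusted p = 0.0321), Lpo by 6.26-fold (-2.65 ± 0.65, adjusted p = 0.00228), Wap by 5.95-fold (-2.57 ± 0.94, adjusted p = 0.0352) and Xdh by 2.88-fold (-1.53 ± 0.46, adjusted p = 0.0123). The tests were limma's over 11773 genes with Benjamini-Hochberg adjustment, on 33 cancers and 3 normal tissues. The differences of the caseins and Lalba did not pass: Csn1s1 -0.55 ± 0.34 (adjusted p = 0.217), Csn2 -0.83 ± 0.65 (0.334), Csn3 -0.47 ± 0.35 (0.317) and Lalba -0.83 ± 0.43 (0.139). Thus 4 of 8 genes were called, all lower, against a background of 34.4% of all genes called in either direction and 16.3% called lower. All 8 differences were below 0, also with quantile normalisation and with each array scaled to its signal ceiling, and their median was -1.18 against 0.024 over all genes. Complete separation, every cancer below every normal tissue, was seen for 2 of 8 genes (Glycam1 and Xdh) and for 4.24% of all genes.

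These calls changed with the normal tissues and the scaling that entered. Leaving out any 1 of the 3 normal tissues ended the calls of Wap (adjusted p = 0.0795 to 0.163) and Glycam1 (0.0801 to 0.134), and leaving out normal tissue 3, the brightest array, ended that of Xdh (0.0870). With quantile normalisation the calls of Wap (0.0577) and Glycam1 (0.0623) were lost. With each array's signal ceiling, a high percentile of its intensities, as a covariate, all 4 were lost, Lpo having an adjusted p of 0.0722, and Csn3 (0.34) and Lalba (0.077) stood above 0. Without the MNU H-ras nonmutated cancer 4, Csn3 (0.0418) and Lalba (0.0339) were also called lower, which made 6 of 8. Over all genes 4260 were then called in either direction, against 4045 with that cancer. With the mean of 5 epithelial genes (Krt8, Krt18, Krt19, Epcam, Cdh1) as a covariate only Lpo was called. The part of tissue makeup in these differences was not tested. Of 11 adipocyte genes 10 were lower in the cancers (median -4.52), as were 8 of 8 endothelial genes (-1.04). Of 11 luminal genes 6 were higher (0.39) and none lower. Over all genes 16.3% were called lower and 34.4% in either direction.

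**Figure D2:**
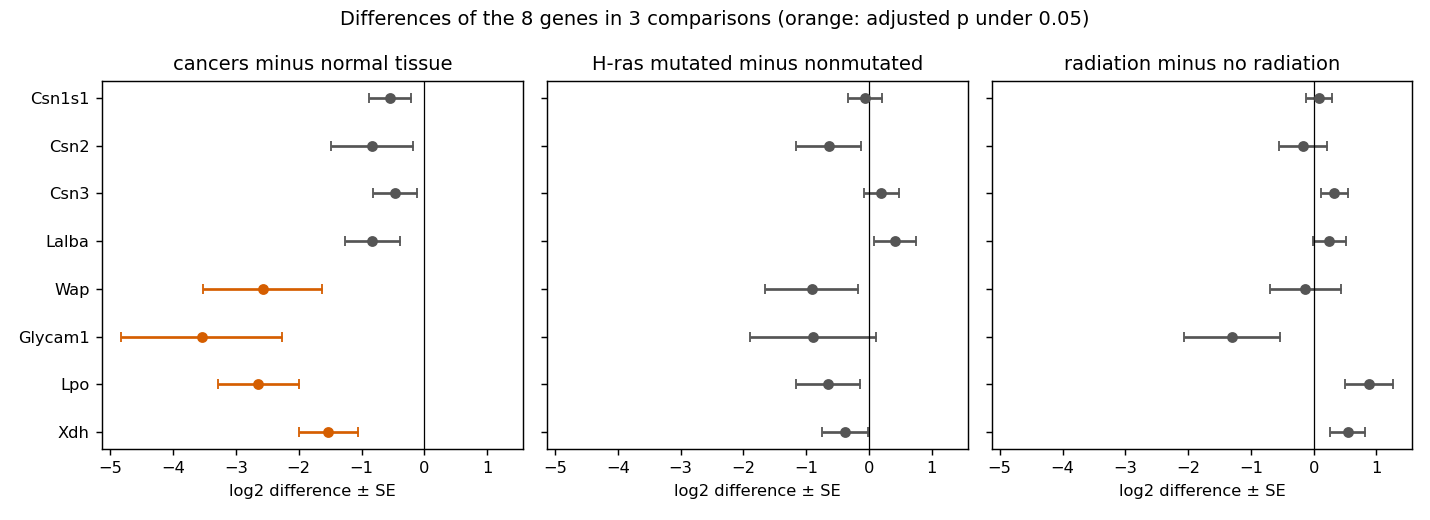
Each panel gives the log2 difference ± SE of the 8 genes from limma in 1 comparison; orange marks an adjusted p under 0.05. Orange points appear in the comparison of cancers with normal tissue, at Wap, Glycam1, Lpo and Xdh, and in neither of the others.

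Other genes of milk secretion, from lists chosen for this tissue, were lower as well. Of 10 measured genes for other milk and fat globule proteins 9 were called lower and none higher (median -1.29). Examples were Cd36, a fatty acid receptor of the fat globule (-4.70 ± 0.51, adjusted p = 6.29e-08), Pigr, which carries immunoglobulin A into milk (-4.13 ± 0.66, 2.43e-05), Folr1, a folate receptor (-2.03 ± 0.35, 4.71e-05) and the mucin Muc1 (-1.23 ± 0.28, 0.00106). Of 16 genes of milk lipid synthesis 13 were lower and none higher (median -1.15). Over all genes 16.3% were called lower and 34.4% in either direction. Dgat1, which makes triglyceride, was at -0.98 ± 0.09 (adjusted p = 3.79e-09), Gpat4, which starts glycerolipid synthesis, at -1.18 ± 0.14 (2.41e-07), the lipase Lpl at -2.03 ± 0.28 (3.55e-06) and the carboxylase Acaca at -1.24 ± 0.18 (4.3e-06). With each array scaled to its ceiling 6 and 9 genes of these lists were called lower. Under that scaling 11.9% of the calls over all genes were lower ones, against 47.6% with the main settings. The share of all genes called lower is not given here for that scaling. Adipocytes use much of the same lipid machinery, Cd36 (-4.70) included, and 10 of their 11 markers were lower in the same cancers (median -4.52). The part of fat tissue in the differences of these lists was not tested.

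Lactose and transport genes were mixed. Of 13, 6 were lower and 1 higher (median -0.22), against 16.3% of all genes called lower. B4galt1, the galactosyltransferase that works with alpha-lactalbumin, was at -1.79 ± 0.30 (adjusted p = 4.02e-05), the zinc transporter Slc30a4 at -1.69 ± 0.21 (4.38e-07), the phosphate transporter Slc34a2 at -3.65 ± 0.74 (0.000372) and Ugp2, which makes UDP-glucose, at -0.76 ± 0.12 (2.62e-05). The gene that was higher was the amino acid transporter Slc7a5 (1.46 ± 0.31, adjusted p = 0.000601), named after its value was seen. With each array scaled to its ceiling this list had 4 genes lower, 4 higher and a median of 0.11. The median of all genes shifted from 0.024 to 0.35 under that scaling, and 11.9% of the calls over all genes were lower ones.

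Of 18 genes of the prolactin pathway 4 were called higher and 4 lower (median 0.067), against the 34.4% of all genes called in either direction and 16.3% called lower, and these counts are not read as particular to the pathway. The prolactin receptor Prlr was higher in the cancers by 3.46 ± 0.44 (adjusted p = 8.13e-07). Its log2 level was 7.44, 9.03 and 9.65 in the normal tissues and 10.12 to 13.03 in the cancers, so that the groups did not overlap. The share of all genes with every cancer above every normal tissue was not computed. The separation is therefore not read as particular to Prlr. Wnt4, a progesterone target, was higher by 2.93 ± 0.37 (adjusted p = 6.55e-07). Lower were Stat5a at -0.65 ± 0.15 (adjusted p = 0.00106), the glucocorticoid receptor Nr3c1 at -0.52 ± 0.10 (0.000163) and Elf5, a transcription factor of alveolar cells, at -1.74 ± 0.65 (0.0394). Cish, a STAT5 target that feeds back on the receptor, was at -0.35 ± 0.25 (0.284). The other calls, named after their values were seen, were Pgr (1.89) and Gata3 (0.50) higher and Socs3 (-0.59) lower. With each array scaled to its ceiling the 4 higher genes were still called and no gene was called lower, Elf5 having an adjusted p of 0.0501. Lower calls were 11.9% of the calls over all genes under that scaling. With quantile normalisation the call of Elf5 was lost (0.0631).

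**Figure D3:**
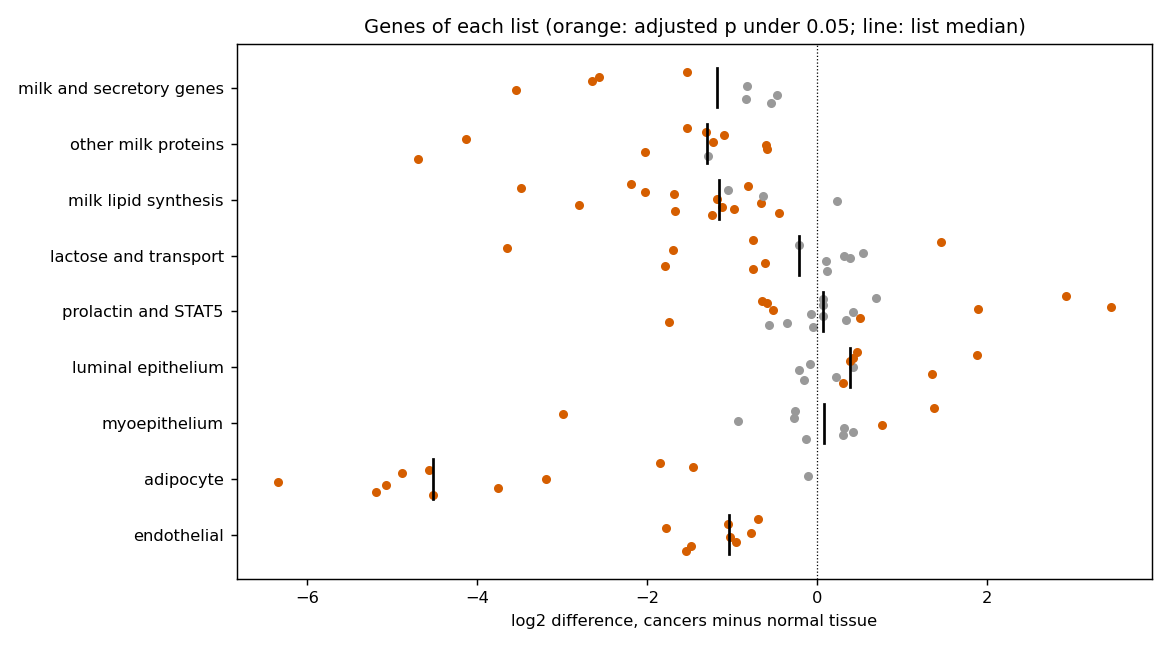
Each point is 1 gene, placed by its log2 difference (cancers minus normal tissue) within its list; orange marks an adjusted p under 0.05 and the vertical line the list's median. All genes of the other milk protein and adipocyte lists lie left of 0 (medians -1.29 and -4.52), as do 15 of 16 lipid genes (median -1.15), and the prolactin list lies on both sides of 0.

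H-ras status was compared within MNU and within radiation plus MNU, and as the mean of both (10 mutated and 8 nonmutated cancers). No member was called in any of these, with 0% of all genes called in each. At an unadjusted p under 0.05, 886 genes differed in the mean comparison, 923 within MNU and 460 within radiation plus MNU. The estimate for the mutated cancers was below 0 for 6 of 8 genes, among them Csn2 (-0.64 ± 0.51, adjusted p = 0.814), Wap (-0.91 ± 0.74, 0.821), Glycam1 (-0.90 ± 1.01, 0.888) and Lpo (-0.65 ± 0.51, 0.812). Lalba was at 0.41 ± 0.34 (0.823), Csn3 at 0.20 ± 0.28 (0.916), Xdh at -0.39 ± 0.37 (0.847) and Csn1s1 at -0.064 ± 0.27 (0.976). Single cancers decided much of this. Without the MNU H-ras mutated cancer 3, Csn2 was at -0.20. Without the MNU H-ras nonmutated cancer 4, Lalba was at -0.035, Csn3 at -0.22, Xdh at -0.73 and Glycam1 at -1.37. Whether the H-ras difference itself differed between MNU and radiation plus MNU was tested as an interaction, with 0% of genes and no member called and 391 genes at an unadjusted p under 0.05.

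In group means, Wap with radiation plus MNU was at 10.73 ± 1.32 (log2 level, SD, n = 5) in mutated cancers and 12.36 ± 1.11 (n = 4) in nonmutated ones. With MNU alone it was at 10.57 ± 1.49 and 10.76 ± 1.53. Glycam1 with MNU alone was at 10.35 ± 2.41 in mutated and 12.02 ± 2.05 in nonmutated cancers, and with radiation plus MNU at 9.64 ± 2.34 and 9.76 ± 2.78. Each of these pairs of groups overlapped. The 1 PhIP cancer with mutated H-ras was bright for Wap, Glycam1 and Lpo, with log2 levels of 13.46, 14.03 and 9.96, and has no replicate.

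Radiation was compared with no radiation over 4 backgrounds: none, MNU with mutated and with nonmutated H-ras, and PhIP with nonmutated H-ras. No member was called, with 0% of all genes called and 1166 at an unadjusted p under 0.05. The largest differences were Glycam1 at -1.31 ± 0.76 (adjusted p = 0.549), Lpo at 0.88 ± 0.39 (0.473) and Xdh at 0.54 ± 0.28 (0.509). Csn1s1 (0.086 ± 0.20), Csn2 (-0.17 ± 0.39), Csn3 (0.33 ± 0.21), Lalba (0.25 ± 0.26) and Wap (-0.13 ± 0.56) were closer to 0. Without the MNU H-ras nonmutated cancer 4, Xdh was at 0.37, Csn3 at 0.12 and Lalba at 0.027. Of the other milk proteins Pigr had the smallest adjusted p (1.43 ± 0.40, adjusted p = 0.344).

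Cause of the cancer was compared among the nonmutated cancers. The F test over the 6 causes called no member, with 0.00849% of all genes called and 1042 at an unadjusted p under 0.05. Adjusted p ran from 0.613 for Lalba to 0.880 for Csn2. The F of Lalba was 2.04, and 0.89 without the MNU H-ras nonmutated cancer 4. Spontaneous cancers against the other nonmutated cancers gave no member either, with 0.068% of all genes called and 948 at an unadjusted p under 0.05. Between-group differences took up 17.4% (Csn2) to 31.9% (Lpo) of the variance of the 8 genes among the cancers, against a median of 27.6% over all genes. In order of group means, Wap ran from normal tissue (13.74 ± 0.54) and the PhIP mutated cancer (13.46) through nonmutated radiation plus MNU (12.36 ± 1.11), nonmutated PhIP (11.91 ± 0.83), spontaneous (11.67 ± 0.79) and radiation (11.24 ± 2.18) to nonmutated MNU, mutated radiation plus MNU, mutated MNU and radiation plus PhIP (10.06 ± 3.01). Apart from the step below the single PhIP mutated cancer, the ranges of neighbours in this order overlapped.

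Some of the genes varied widely from cancer to cancer. Glycam1 had the largest SD over the 33 cancers of all 11773 genes (2.33 in log2, against a median of 0.26). Wap ranked 17 (1.70), Lpo 62 (1.22) and Csn2 99 (1.12). Xdh ranked 322 (0.82), Lalba 385 (0.79), Csn3 867 (0.62) and Csn1s1 1099 (0.58). The SDs of the last 3 fell most when 1 cancer was left out. Without the MNU H-ras nonmutated cancer 4 the SD of Csn3 was 0.24 (rank 6487), below the median of 0.25 over all genes, and that of Lalba 0.43 (rank 2213). Without the radiation plus PhIP cancer 2 the SD of Csn1s1 was 0.37 (rank 3105). Glycam1 ranked 1 and Wap 17 without the MNU H-ras nonmutated cancer 4. Wap was at 1.44 (rank 36) without the radiation plus PhIP cancer 2. Csn2 was at 0.85 (rank 290) without the MNU H-ras mutated cancer 3. The step from the lowest to the highest cancer was 7.75 log2 units for Wap and 6.94 for Glycam1, against 3.06 for Csn1s1. Whether signals near the top of the scale limited the spread of Csn1s1, Csn3 and Lalba was not tested.

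Within single cancers the milk genes were dim to differing degrees. In the radiation plus PhIP cancer 2, Wap (17.5), Csn2 (795) and Csn1s1 (2016) were the lowest or next to lowest of all cancers, while Csn3 (15995) and Xdh (8553) were above the median cancer. In the MNU H-ras mutated cancer 3, Csn2 (462), Wap (208), Glycam1 (107), Lpo (62.2) and Csn1s1 (6440) were low. Csn3 read 11859 and Lalba 8035 there, the medians of its group but below the median cancer (15397 and 10049). Radiation cancer 3 had Csn2 at 4013, Wap at 308, Glycam1 at 256 and Lpo at 65.9. Csn1s1 read 13200 and Csn3 15397 there, beside a median cancer of 13094 and 15397. The mean of the luminal genes in these 3 cancers was 11.78, 11.64 and 11.62. The median over all cancers was 11.65, and the highest normal tissue was at 11.54. The part of luminal content in the dim genes was not tested. Prlr was at 11.66, 11.61 and 12.58, and Elf5 at 10.84, 10.80 and 11.71. The MNU H-ras nonmutated cancer 4 was different. All 8 genes were below the median cancer there, and Csn3 (1437), Lalba (644) and Xdh (924) were at their lowest. Elf5 was at 7.33, also the lowest of the cancers. With the RNA ratio of that array at 12.2, the part of RNA quality was not tested.

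Over the 33 cancers the genes varied together to differing degrees. All 28 pairs had a positive Pearson correlation (0.191 to 0.902, median 0.468). By permutation test, two-sided and adjusted over the 28 pairs, 15 passed for Pearson's r and 25 for Spearman's rho. Samples share the scaling of their arrays, and r is sensitive to the few dim cancers. The share over pairs of other genes was not computed, so these counts are not read as particular to milk genes. Csn2 and Wap had r = 0.858 and rho = 0.815 (permutation p = 1e-05, the smallest the permutations can give, adjusted 9.3e-05 and 3.5e-05), and r was 0.852 without the 2 cancers farthest from the median of Csn2. The neighbours Csn1s1 and Csn2 had r = 0.779 (permutation p = 0.00058, adjusted 0.0018) and rho = 0.799 (adjusted 3.5e-05), and 0.766 without 2 cancers. Csn3 and Lalba had r = 0.902 (permutation p = 3e-05, adjusted 0.00017) and rho = 0.784 (adjusted 3.5e-05), and r was 0.598 without the MNU H-ras nonmutated cancer 4. Csn3 and Xdh had r = 0.725 and rho = 0.779 (permutation p = 1e-05, adjusted 9.3e-05 and 3.5e-05). Csn2 and Csn3, both caseins, had r = 0.272 (permutation p = 0.068, adjusted 0.083) and rho = 0.677 (adjusted 0.00011). Glycam1 and Csn2 had r = 0.601 (permutation p = 2e-05, adjusted 0.00014) and rho = 0.578 (adjusted 0.00087). Glycam1 and Csn3 did not pass (r = 0.191, adjusted permutation p = 0.34, rho = 0.156, adjusted 0.39), and the difference between these correlations was not tested. The median r within groups was 0.476.

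**Figure D4:**
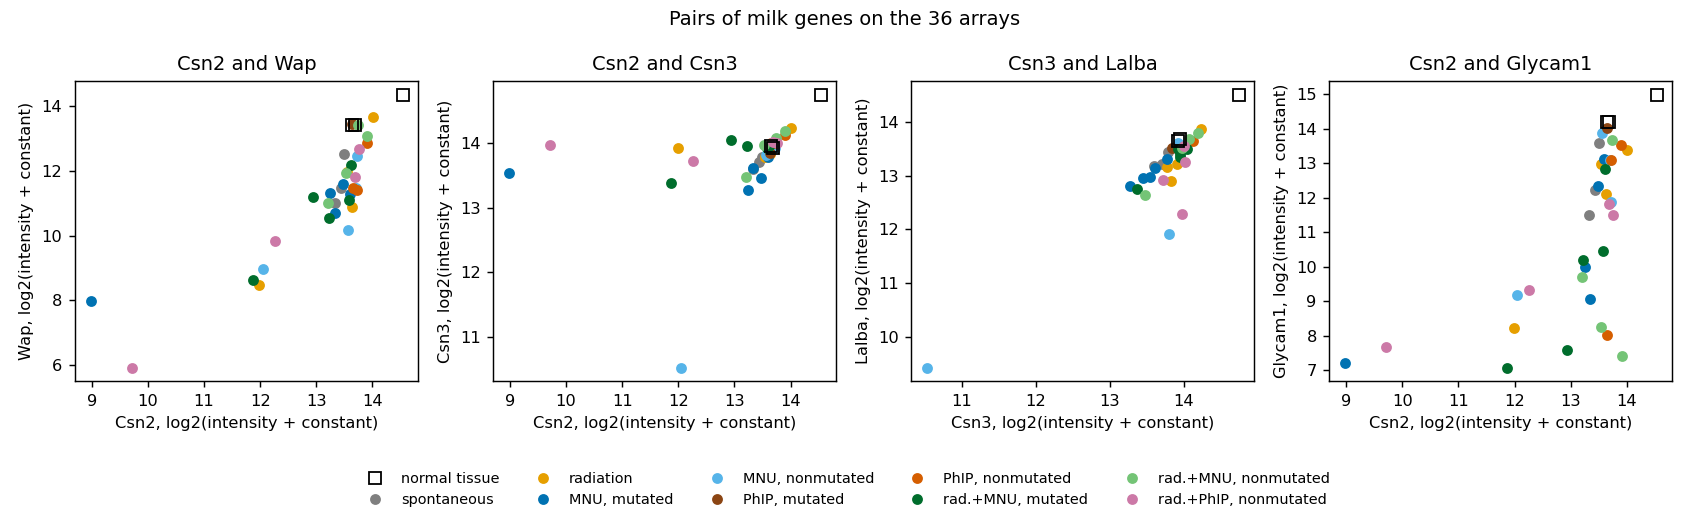
Each panel plots 2 genes against each other on the 36 arrays, both as log2(intensity + 42.8); circles are cancers coloured by group and open squares are normal tissues. Low Wap goes with low Csn2 (r = 0.858). In the cancers with the lowest Csn2, Csn3 is far less reduced than Csn2 (r = 0.272, rho = 0.677). The point at the bottom left for Csn3 and Lalba is the MNU H-ras nonmutated cancer 4.

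Csn2 was also set against the 18 measured prolactin and STAT5 genes over the 33 cancers. By permutation test adjusted over the list, 0 passed for Pearson's r (2, Prlr and Akt1, had an unadjusted p under 0.05) and 2 for Spearman's rho. These were Nfib, a partner of STAT5 at milk gene promoters (r = 0.255, adjusted p = 0.31, rho = 0.657, adjusted permutation p = 0.0011), and Elf5 (r = 0.265, adjusted p = 0.31, rho = 0.564, adjusted permutation p = 0.0084). Prlr had r = 0.368 and rho = 0.414 (adjusted permutation p = 0.3 and 0.062). Stat5a had r = 0.101 (permutation p = 0.56).

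In the RefSeq order of genes, Csn3, Fdcsp, Odam, Prr27, Csn1s2b, Csn1s2a, Stath, Csn2 and Csn1s1 follow each other. Of these Csn3, Prr27, Csn2 and Csn1s1 were measured here. Prr27, a secreted proline-rich protein, was at 12.70 ± 1.24 (log2 level, SD, n = 33) in the cancers and 14.15 ± 0.34 (n = 3) in normal tissue. Over the cancers it had r = 0.922 with Csn3 (0.853 without the MNU H-ras nonmutated cancer 4) and 0.343 with Csn2. It had been placed in a list of 7 genes of other exocrine glands. Of these 3 had a probe set, and Prr27 was the 1 gene that passed the intensity filter. As it lies among the caseins, that list is not read as a marker of another gland here. Which cells made its RNA was not tested.

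The genes most like the mean of the 3 caseins, Lalba and Wap over the 33 cancers, by Pearson r as a description, were Me1 (0.777), which makes NADPH for fatty acid synthesis, Fabp3 (0.775), a fatty acid binding protein of the mammary gland, G0s2 (0.774), an inhibitor of lipolysis, Slc38a3 (0.766), a glutamine transporter, and Ccdc88c (0.762). Nearest to Xdh were Ntn1 (0.943) and Ngef (0.929), to Lpo Pigr (0.853) and Gdap1 (0.845), to Wap Fabp3 (0.806) and Gdap1 (0.781), and to Glycam1 Relt (0.672) and Ciapin1 (0.669). For Csn1s1 they were Slc38a3 (0.726) and Hsd17b3 (0.719), and for Csn2 Hsd17b3 (0.668) and Tmem233 (0.646). Without the MNU H-ras nonmutated cancer 4, Mta1 with Csn3 (0.919) went down to 0.444. Rap1gap and Prr27 with Lalba (both 0.864) went down to 0.616 and 0.615. For the mean of the caseins, Lalba and Wap, r without that cancer was 0.698 (Me1), 0.748 (Fabp3), 0.706 (G0s2), 0.701 (Slc38a3) and 0.736 (Ccdc88c).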

How the data were processed

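The authors deposited 1 table of 31099 probe sets on 36 arrays, and its values are array intensities on a linear scale with a trimmed mean of 500.1 on each array. The sources used here do not give how probe cells were summarised. Per the labels, biotin-labelled cRNA was made from 8 µg of total RNA. Genes were named through the platform annotation. Values were taken as log2(intensity + 42.8), where the constant was the 20th percentile of the table. The brightest probe set of a gene was kept where it passed 125.8 (the 40th percentile) on at least 3 arrays, which left 11773 genes. limma 3.58.1 (R 4.3.3) fitted a mean per label group to the 36 arrays, with Benjamini-Hochberg adjustment over all genes and a threshold of 0.05. The fit was tested on simulated data. Correlations used 100000 permutations in Python 3.11.15. No scan date or batch was used here. Named were the 9 genes, the 4 genes of lowest adjusted p in a list, Prlr, Stat5a, Elf5 and Cish, and the genes most alike. The members and lists were chosen with earlier results of these data known. Alternatives were another added constant, no filter, quantile normalisation, the mean of a gene's probe sets, a variance trend, the replicate number as a block, 3 covariates and leaving out each array. Scaling each array to its signal ceiling was chosen after seeing the data, as were the gene lists under 3 of these settings and the SDs without single cancers.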

Additional observations from a re-analysis of the deposited data

Results flagged for a closer look

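Single cancers stood apart on the low side of their group for 11 of 48 combinations of gene and group, on 5 arrays, by Dixon's test for groups of 4 or 5. For independent values chance gives about 1 in 20, but these genes vary together on the same arrays. The share over all genes was not computed, so the count is not read as an excess. The test weighs the gap against the group's range, so some of these gaps are small: the lowest Csn3 of the radiation plus PhIP group was 13.72 against a group mean of 13.93 ± 0.14 (SD). Log2 levels follow. The MNU H-ras mutated cancer 3 was low for Csn1s1 (12.66), Csn2 (8.98) and Wap (7.97). The MNU H-ras nonmutated cancer 4, with the highest hexokinase ratio, was low for Csn1s1 (12.08), Csn2 (12.05) and Csn3 (10.53). Radiation plus MNU H-ras mutated cancer 1 was low for Csn1s1 (13.42), Csn3 (13.37) and Lalba (12.75). The radiation plus PhIP cancer 2 was low for Csn1s1 (11.01) and cancer 4 of that group for Csn3 (13.72). No cancer stood apart on the high side. Glycam1, Lpo and Xdh gave no such value in these groups.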

How the results depend on the processing

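Of 2164 recomputed values, 2080 were counted as the same. For a gene's difference this meant the same direction and the same side of the threshold, and for its F test the same side. Counts of genes and median correlations only had to stay within a set limit of their main value. The members called lower in cancers were 2 (not 4) with quantile normalisation, 0 with the signal ceiling as covariate and 1 with epithelial genes as covariate. The signal ceiling rests in part on the milk genes themselves, so it is no independent check of them. Lalba gained a call with the hexokinase covariate (-0.84, adjusted p = 0.0457). Genes called for spontaneous cancers were 5 with a constant of 16, 14 with the hexokinase covariate and 184 (not 8) with each array scaled to its ceiling. The F test called 5 genes with a variance trend, 0 with the ceiling covariate and 4 with ceiling scaling. H-ras within MNU gave 1 gene with the mean of probe sets, and radiation gave 4 with the epithelial covariate. Ceiling scaling lowered the share of lower calls between cancers and normal tissue from 47.6% to 11.9%. Same-numbered arrays of different groups did not deviate together more than others by the median r (-0.0002, other numbers 0.0009). The labels do not say what the numbers mark, and whether they stand for a shared day or litter was not tested. With the replicate block, radiation gave 1 gene, spontaneous 5 and the F test 2. Signs turned for values that were not called with the main settings. With quantile normalisation Csn1s1 was at 0.084 (H-ras) and -0.014 (radiation). With the ceiling covariate Csn3 (0.34) and Lalba (0.077) against normal tissue turned from -0.47 and -0.83, Csn1s1 was at 0.078 (H-ras) and -0.10 (radiation) and Lalba at -0.088 (radiation). With the hexokinase covariate Csn3 was at -0.011 (H-ras), and with ceiling scaling Csn1s1 was at 0.029 (H-ras) and -0.036 (radiation). The cause was not tested. Leaving out each array but the lone PhIP mutated cancer in turn, members called against normal tissue ran from 1 to 6, and genes called from 0 to 4 (H-ras), 0 to 10 (within MNU), 0 to 2 (within radiation plus MNU), 0 to 1 (interaction), 0 to 3 (radiation), 4 to 11 (spontaneous) and 0 to 8 (F test). For H-ras, Csn1s1 ran from -0.27 to 0.014, Csn3 from -0.22 to 0.35 and Lalba from -0.035 to 0.66. For radiation, Csn1s1 ran from -0.019 to 0.25, Csn2 from -0.39 to 0.051 and Wap from -0.35 to 0.22. Only 3 normal tissues, a scale with a top and unstated reproductive state limit these results.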
